A study of Homo sapiens with 14 samples.

Results

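The HOX genes are the homeobox transcription factor genes of the HOXA, HOXB, HOXC and HOXD clusters. They were taken here as every probe of the bead array whose annotated gene symbol is HOX followed by A, B, C or D and a number. The rule found 36 probes for 29 genes, out of 47323 probes, of which 30113 carry a single gene symbol and name 20046 genes. It covered 1 gene of the HOXA cluster (HOXA2), 10 of HOXB, 9 of HOXC and 9 of HOXD, where RefSeq lists 11, 10, 9 and 9, so the other 10 HOXA genes were not analysed here. HOXC6 had 4 probes, 4 genes (HOXA2, HOXB3, HOXB6 and HOXC4) had 2 each, and the other 24 genes had 1.

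HOX proteins bind DNA through the homeodomain, usually with PBX, MEIS or PKNOX cofactors, and specify position along the body axis. Genes with low numbers lie towards one end of a cluster and act in the head and neck, and genes with high numbers act in the trunk, limbs and pelvis. Polycomb proteins keep the clusters silent outside their domains and trithorax proteins keep them active inside them. The adult prostate arises from the posterior body and HOXB13 marks its luminal cells.

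The arrays were Illumina bead arrays of total RNA from 3 human prostate cancer cell lines, with 14 arrays in 3 tables. The study lowered FoxA1, a forkhead pioneer factor, in LNCaP and 22RV1, and overexpressed it in PC-3M. LNCaP is an androgen-responsive line from a lymph node metastasis, 22RV1 a line from a xenograft, and PC-3M a metastatic derivative of the androgen-independent line PC-3. LNCaP carrying control shRNA (shCtrl) or FoxA1 shRNA (shFoxA1) gave 8 arrays: 2 numbered arrays of each with no medium in the title, 1 of each labelled R1881, a synthetic androgen, and 1 of each labelled hormone-deprived. LNCaP with control or FoxA1 siRNA gave 1 array each, 22RV1 with stable control or FoxA1 shRNA 1 each, and PC-3M control and PC-3M labelled FoxA1 1 each. The general protocol gives 10% serum for all 3 lines. For LNCaP and 22RV1 it adds, for some experiments, 3 days in charcoal-stripped medium and then 1 nM R1881 for 24 h, without saying which arrays. No label says that the numbered arrays came from separate cultures, so the spread between them may be technical. P-values of the LNCaP knockdown test measure that spread together with the variation of the knockdown difference between media.

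The arrays had mean deposited intensities of 157 to 447, and 34.3% to 51.9% of all probes were detected on each. The only FOXA1 probe was lower in LNCaP with FoxA1 shRNA, with a log2 difference of -1.02 (SE 0.15, 4 against 4 arrays, limma adjusted p = 0.0121). The siRNA pair (-0.81) and 22RV1 (-1.11) had the same direction. PC-3M did too (-1.51), although the study describes overexpression there, so that array is called the array labelled FoxA1 throughout. Whether this probe reads the introduced FOXA1 was not examined. Of 7 luminal prostate markers, 4 were detected on both PC-3M arrays, and KLK3, KLK2 and TMPRSS2 on neither. The 4 were KRT8, KRT18, SLC45A3 and HOXB13, which is itself a HOX gene. Of 5 leukocyte and endothelial markers, CD68 was detected on all arrays and rose in LNCaP with FoxA1 shRNA with 1 of 3 probes (1.636, limma adjusted p = 0.0244), and VWF fell (-0.97, limma adjusted p = 0.0111). PECAM1 was detected on both PC-3M arrays and 1 LNCaP array, PTPRC on 1 LNCaP array and CD3E on none. Of 5 fibroblast markers, COL1A2 and LUM were detected on both PC-3M arrays. COL1A2 had 8.82 and 9.67 in control and 7.37 and 7.62 on the array labelled FoxA1 with its 2 probes. DCN went the other way with probes ILMN_1768227 (4.66 to 7.26) and ILMN_2347145 (4.46 to 8.46), each detected on 1 PC-3M array. DCN probes ILMN_1683194 and ILMN_1838575 differed by -0.06 and -0.19. The part of these genes in the HOX values was not tested. The 2 kinds of LNCaP shRNA array differed in background: its SD was 18.0 to 21.2 intensity units on the 4 numbered arrays and 7.77 to 10.2 on the 4 arrays with a named medium.

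The promoter window of HOXC4 and HOXC5 is printed because RefSeq gives both genes the same start, while HOXC4 was detected on 8 of the 14 arrays and HOXC5 on none. The window of 300 bases, from 250 before to 50 after the start, lies at chr12:54016638-54016937 on the plus strand of GRCh38.p14. Capitals mark matches to the forkhead-type letters TGTTTAC or TGTTTGC on either strand, TGTTTAC reading GTAAACA on the printed strand.
HOXC4 and HOXC5: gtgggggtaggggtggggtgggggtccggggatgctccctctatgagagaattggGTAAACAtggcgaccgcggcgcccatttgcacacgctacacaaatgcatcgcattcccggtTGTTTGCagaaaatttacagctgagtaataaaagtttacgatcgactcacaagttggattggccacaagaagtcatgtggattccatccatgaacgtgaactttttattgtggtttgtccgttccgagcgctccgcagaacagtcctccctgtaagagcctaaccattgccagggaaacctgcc
Windows were found for 12 of the 29 genes, 11 of them distinct, and 1 of the 11, the printed one, held either motif. Over all 34796 windows of this length, 3.42% held TGTTTAC, 3.88% held TGTTTGC and 7.16% held either. A match describes letters and not binding.

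HOX clusters also hold microRNA genes that are known to act on HOX messages. The miR-196 forms are printed because their genes lie inside the HOXA, HOXB and HOXC clusters and share a seed, bases 2 to 8, given in capitals (sequences from RefSeq, GRCh38.p14).
hsa-miR-196a-5p: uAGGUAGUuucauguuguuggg
hsa-miR-196b-5p: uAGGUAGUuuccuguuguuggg
The array probes for MIR196A1, MIR196A2, MIR196B and MIR10A were detected on none of the 14 arrays. The MIR10B probe was detected on 1, 22RV1 with FoxA1 shRNA, at a log2 value of 4.73. The mature forms were not analysed here.

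HOXB13, HOXC6 and HOXC13 were detected on all 14 arrays, and 9 genes (HOXB2, HOXB9, HOXC5, HOXC10, HOXC12, HOXD1, HOXD8, HOXD9 and HOXD12) on none. A probe counted as detected at a deposited detection p below 0.05. For the siRNA and 22RV1 arrays, whose detection column held no p-values, it had to exceed the background mode by the number of SD that a normal curve passes with that p. A gene counted as detected in a set of arrays if 1 of its probes was detected on every array of that set. LNCaP shRNA arrays detected 3 genes on all 8 arrays, and 12 on at least 1. HOXB3, HOXB5, HOXB6, HOXC4 and HOXD4 were also detected on all 4 arrays with a named medium. The numbered arrays detected 4 to 7 HOX probes each and the named-medium arrays 9 to 12. A count over 8 arrays asks more than a count over 2, so the LNCaP shRNA count is not compared with those that follow. LNCaP siRNA arrays detected 10 genes on both arrays, 22RV1 arrays 15 and PC-3M arrays 8. By cluster, the 15 genes in 22RV1 were HOXA2, 6 HOXB genes, 6 HOXC genes and 2 HOXD genes, and the 8 in PC-3M were HOXA2, 3 HOXB, 2 HOXC and 2 HOXD genes.

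**Figure D1:**
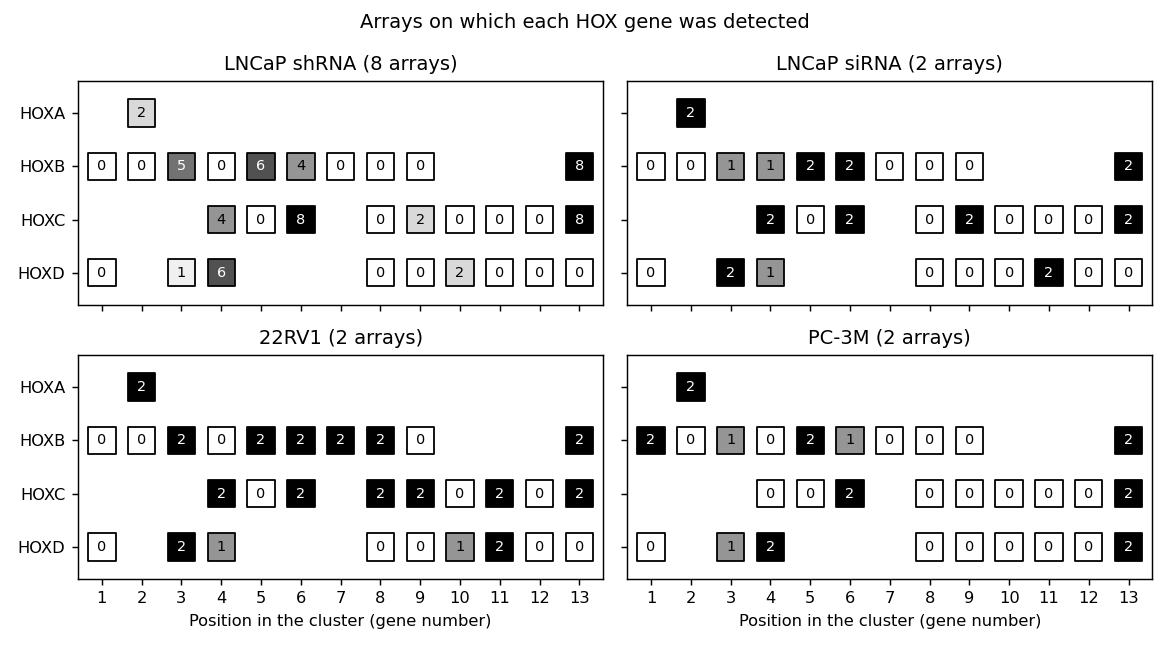
Number of arrays on which each HOX gene was detected with its most often detected probe, by cluster (rows) and gene number (columns), for the 8 LNCaP shRNA, 2 LNCaP siRNA, 2 22RV1 and 2 PC-3M arrays; darker squares mean a larger share of arrays. HOXB13, HOXC6 and HOXC13 are black in every panel, and 22RV1 has the longest run of detected HOXB and HOXC genes.

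All 10 genes detected on both LNCaP siRNA arrays were also detected on both 22RV1 arrays. The 5 genes that 22RV1 added were HOXB3, HOXB7, HOXB8, HOXC8 and HOXC11. Of these, HOXB7, HOXB8, HOXC8 and HOXC11, which pattern the trunk and its posterior end, were detected on no LNCaP or PC-3M array. HOXB1, a hindbrain gene, and HOXD13, which patterns the digits and the genital tubercle, were detected on both PC-3M arrays and on no other array. HOXD13 had log2 values of 5.65 and 5.56 in PC-3M, and deposited detection p-values of 0.0039 and 0.0026. HOXB1 had 5.09 and 5.04, and detection p-values of 0.0208 and 0.0429. HOXB1 therefore lies close to the threshold, and it was 1 of the 5 PC-3M genes not detected at p below 0.01, a level at which HOXB13, HOXC6 and HOXD13 remained.

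As a share of probes, HOX probes were detected on every array in 8.33% of cases on the LNCaP shRNA arrays, where all probes with a single gene symbol gave 34.3%. The shares were 36.1% against 51.7% on the LNCaP siRNA arrays, 55.6% against 51.5% on the 22RV1 arrays and 25.0% against 43.5% on the PC-3M arrays. The HOX share was below that of named probes except in 22RV1, where it was near it. Levels are not compared between the 3 tables, which were normalised separately, and shares of detected probes move with each table's background. They also move with the number of arrays required, 8 for LNCaP shRNA and 2 for each other set. The siRNA and 22RV1 arrays had their own detection rule. Among the LNCaP siRNA genes, 9 of 10 were detected on at least 1 LNCaP shRNA array, with HOXD11, a limb and kidney gene, detected on none of the 8.

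The 22RV1 and LNCaP siRNA arrays share a table, so their log2 levels can be set side by side, probe by probe. Line and delivery go together here, with siRNA in LNCaP and stable shRNA in 22RV1, so their parts cannot be told apart. Both arrays of a line differ in their FoxA1 label and no group is replicated, so the values are descriptions without a test. A probe was called apart when both arrays of a line lay on the same side of both arrays of the other, the means differed at least 2-fold and it was detected on both brighter arrays. By that rule 7 of 36 HOX probes (19.4%) were higher in 22RV1, where 8.14% of all probes were, and 0 were lower, where 7.51% of all probes were.

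HOXB5, a gene of the cervical and upper thoracic domain, had log2 values of 9.75 and 9.51 in 22RV1 (control, then FoxA1 shRNA) and 5.39 and 4.67 in LNCaP (control, then FoxA1 siRNA). It was detected on all 4 arrays, and its mean was 24.3-fold higher in 22RV1. Its neighbour HOXB7 had 7.76 and 7.48 in 22RV1 and 4.46 and 4.33 in LNCaP. The LNCaP values were below detection, the control value only just, as the lowest detected signal of that array was 4.48. HOXB7 was thus at least 8.74-fold higher in 22RV1. HOXB8, which in mouse holds back myeloid differentiation, had 6.93 and 5.87 in 22RV1 and 4.16 and 4.29, below detection, in LNCaP, at least 3.76-fold. HOXB6, between HOXB5 and HOXB7, was detected on all 4 arrays with both probes and was not called: probe ILMN_1667831 was 1.41-fold higher in 22RV1, and probe ILMN_1768101 had a ratio of 0.839. From HOXB5 to HOXB8 the measured ratio of 22RV1 to LNCaP thus ran from 0.839 to 24.3.

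In the HOXC cluster, HOXC8, a thoracic patterning gene, had log2 values of 7.13 and 6.76 in 22RV1 and 4.32 and 4.32 in LNCaP, the latter below detection, and was at least 5.48-fold higher in 22RV1. HOXC9, its thoracic neighbour, had 6.97 and 6.64 in 22RV1 and 5.28 and 4.96 in LNCaP, 3.22-fold higher. HOXC4 (probe ILMN_1719975) had 7.45 and 7.14 in 22RV1 and 5.99 and 6.07 in LNCaP, 2.41-fold higher. The other HOXC4 probe (ILMN_1757184) was 1.08-fold higher in 22RV1 and was not called. It was detected on 1 22RV1 array and on neither LNCaP array. As the call requires, the 22RV1 and LNCaP values of the called HOXC8, HOXC9 and HOXC4 probes did not overlap. HOXC5, with the printed start in common with HOXC4, was below detection on all 4 arrays at 4.18, 4.19, 4.29 and 4.50. HOXC11 was detected in 22RV1 alone of the lines, at 4.83 and 4.75, but rose above the LNCaP detection limit by at least 1.23-fold and was not called.

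HOXA2, a hindbrain and branchial arch gene, was called through probe ILMN_2107068, with 5.35 and 5.32 in 22RV1 and 4.29 and 4.29 in LNCaP. Its LNCaP values were below detection and the bound was at least 1.79-fold. The measured means were 2.07-fold apart, below 2-fold on the log2 scale without background correction (0.783) and in the authors' processed values (0.897). The other HOXA2 probe was 1.76-fold higher in 22RV1. The genes detected in every line did not share the 22RV1 excess. HOXB13 had 9.06 and 9.70 in 22RV1 and 9.49 and 9.51 in LNCaP, overlapping values. HOXC13, a hair and nail gene, had 6.88 and 7.37 in 22RV1 and 7.30 and 7.44 in LNCaP, also overlapping. HOXC6 (probe ILMN_1794492) had 10.46 and 10.21 in 22RV1, below the 10.84 and 10.72 in LNCaP, a ratio of 0.733 that did not reach 2-fold.

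**Figure D2:**
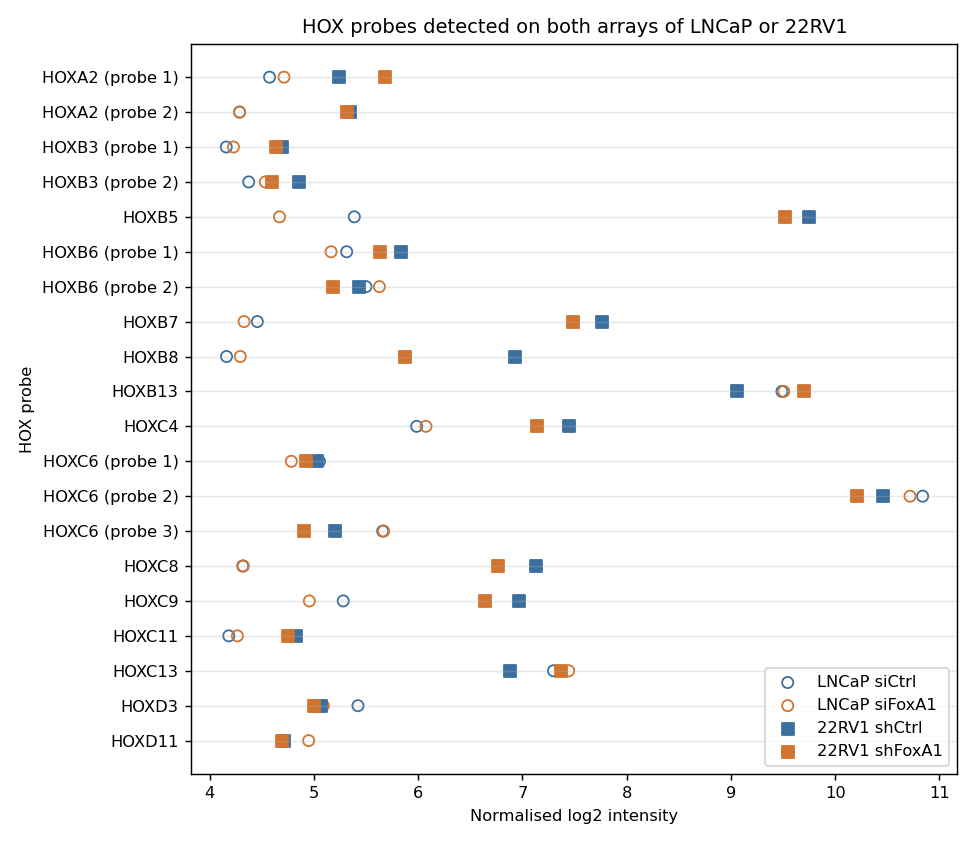
Normalised log2 intensity (horizontal axis) of the 20 HOX probes detected on both LNCaP siRNA arrays (open circles) or both 22RV1 arrays (filled squares), with control arrays in blue and FoxA1 knockdown arrays in orange; probes of a gene are numbered in order of probe ID. HOXB5, HOXB7, HOXB8, HOXC4, HOXC8 and HOXC9 lie to the right in 22RV1, while HOXB13 and HOXC13 overlap.

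The 4 HOXC6 probes read differently. HOXC6 has a pair of annotated transcript variants, and probes ILMN_1740104 and ILMN_1794492 are annotated to one and ILMN_1787334 and ILMN_2396039 to the other. Probe ILMN_1794492 was detected on all 14 arrays. Probe ILMN_1740104, annotated to the same variant, was detected on 2 of the 8 LNCaP shRNA arrays, both hormone-deprived, on all 4 siRNA and 22RV1 arrays and on neither PC-3M array. Probe ILMN_2396039 was detected on 1 LNCaP shRNA array, on all 4 siRNA and 22RV1 arrays and on neither PC-3M array. Probe ILMN_1787334 was detected on 1 of 14 arrays, 22RV1 with FoxA1 shRNA. Detection of HOXC6 on all LNCaP shRNA arrays and on both PC-3M arrays therefore rested on a single probe, and on both LNCaP siRNA and both 22RV1 arrays on 3.

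Whether FoxA1 knockdown changed HOX genes in LNCaP was tested on the 8 shRNA arrays with limma, with medium as a covariate, over the 22177 probes detected on at least 2 of them. Of the 36 HOX probes, 13 (11 genes) entered the test, and 0 passed at an adjusted p of 0.05, where 6.17% of all probes did (1368 probes). At an unadjusted p of 0.05, 0 of 13 HOX probes passed in the same limma fit, where 23.2% of all probes did. The 23 HOX probes not tested were detected on 0 (20 probes) or 1 (3 probes) of the 8 arrays. Differences of the tested probes, FoxA1 shRNA minus control, ran from -0.24 (HOXB3) to 0.26 (HOXC4) on the log2 scale, 7 higher and 6 lower, with a median of 0.04, where the median of all tested probes was -0.01. The 95% intervals reached from -0.58 to 0.65. For the 3 probes detected on all 8 arrays they reached from -0.42 to 0.41. The other 10 were below detection on 2 to 6 of the arrays, and the background offset compresses their differences, so their intervals do not bound the change of the RNA.

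HOXB13, which in prostate cells occupies chromatin together with FoxA1, had log2 values of 8.26, 8.47, 8.09 and 8.02 on the control arrays (numbered 1, numbered 2, R1881, hormone-deprived). On the FoxA1 shRNA arrays in the same order it had 8.29, 8.17, 7.93 and 8.11. The groups overlapped, and the difference was -0.09 (SE 0.12, 95% interval -0.36 to 0.19, limma adjusted p = 0.724).

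HOXC6, frequently high in prostate tumours, had 10.12, 9.92, 10.47 and 10.75 on the control arrays with probe ILMN_1794492. On the FoxA1 shRNA arrays it had 9.94, 10.03, 10.61 and 11.13. The groups overlapped, with a difference of 0.11 (SE 0.13, 95% interval -0.18 to 0.41, limma adjusted p = 0.646). With median scaling, which moved the median of all probes to -0.124, the HOXC6 difference was -0.126. HOXC13 had 6.83, 6.83, 6.75 and 7.73 on the control arrays and 7.07, 6.58, 6.37 and 7.81 on the FoxA1 shRNA arrays. Again the groups overlapped, and the difference was -0.08 (SE 0.15, 95% interval -0.42 to 0.26, limma adjusted p = 0.796).

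Of the dimmer tested genes, HOXC4, known in mouse B cells as an activator of the antibody-diversifying deaminase gene, had the smallest p. Its difference was 0.26 (SE 0.13, 95% interval -0.04 to 0.56, limma unadjusted p = 0.0787, adjusted p = 0.274). HOXB5 differed by 0.24 (SE 0.18, limma adjusted p = 0.464), and HOXD10, a gene of lumbar motor neurons, by -0.22 (SE 0.13, limma adjusted p = 0.337). HOXD4, a cervical gene, was the only tested probe whose 4 FoxA1 shRNA values all lay above the 4 control values. Its values were 5.29, 5.34, 5.30 and 5.25 against 4.98, 5.14, 5.22 and 5.20, a difference of 0.16 (SE 0.12, limma adjusted p = 0.460). That is 1 of 13 HOX probes (7.69%) whose groups did not overlap, where 9.02% of all tested probes did so.

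**Figure D3:**
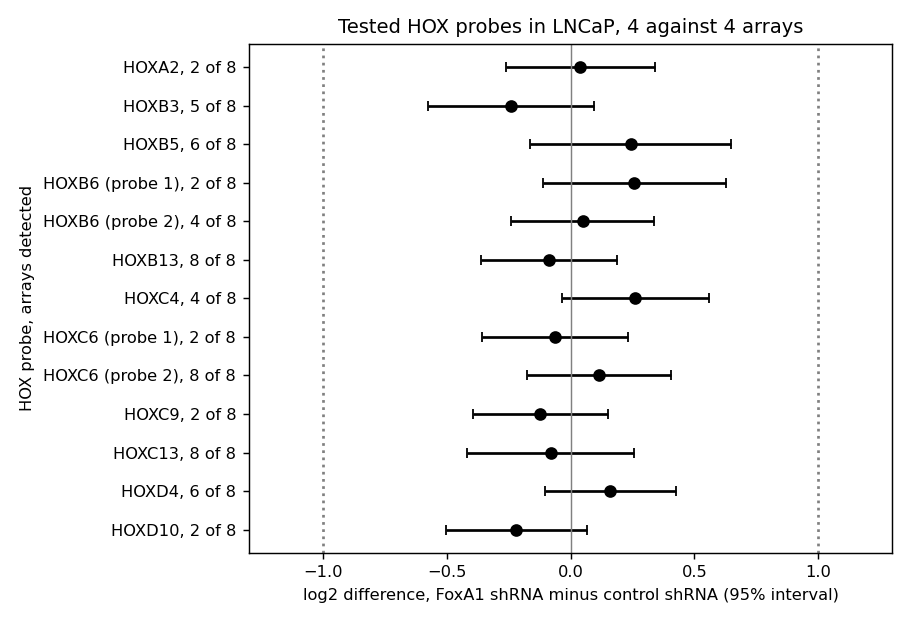
Log2 difference, FoxA1 shRNA minus control shRNA, of the 13 tested HOX probes in LNCaP (points, 4 against 4 arrays) with 95% limma intervals (bars); labels give the number of the 8 arrays with detection, probes of a gene are numbered in order of probe ID among those tested, and dotted lines mark 2-fold. Every interval includes 0; differences of probes detected on fewer than 8 arrays are compressed by the background offset.

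The knockdown difference was also compared between the R1881 and hormone-deprived pairs, in a limma fit of 6 group means with 2 residual degrees of freedom. Each of the 4 arrays in this comparison is alone in its group, so the SE comes from the numbered arrays, whose background SD was larger, together with the prior over all probes. The test called 0 of 13 HOX probes and 0.00% of all probes at an adjusted p of 0.05, and 1 HOX probe (7.69%) at an unadjusted p of 0.05, where 1.69% of all probes passed. That probe was HOXB5, with 5.44 (control) and 6.05 (FoxA1 shRNA) in R1881 and 5.68 and 5.20 hormone-deprived. The knockdown difference was 1.09 larger in R1881 (SE 0.34, limma unadjusted p = 0.0185, adjusted p = 1.000).

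Within LNCaP, some HOX probes differed by medium or by set of arrays. These were singled out after the values were seen, and have no test. HOXC13 was higher on both hormone-deprived arrays (7.73 and 7.81) than on the R1881 arrays (6.75 and 6.37). The differences were 0.97 in control and 1.44 in FoxA1 shRNA cells, a mean of 1.21. The 4 numbered arrays lay between 6.58 and 7.07, below both hormone-deprived arrays. HOXC13 was 1 of 36 HOX probes (2.78%) with hormone-deprived and R1881 arrays not overlapping and means at least 2-fold apart, where 0.822% of all probes were (0.518% higher hormone-deprived). The mean difference stayed positive but under 2-fold with median scaling (0.951), without background correction (0.981), with a larger offset (0.970) and in the authors' processed values (0.889). HOXC6 (probe ILMN_1794492) was higher hormone-deprived by 0.28 in control and 0.51 in FoxA1 shRNA cells. In the same order, its probe ILMN_1740104 differed by 0.44 and 0.42, ILMN_1787334 by 0.07 and 0.27, and ILMN_2396039 by -0.30 and -0.12. These were detected on 2, 0 and 1 of the 4 arrays.

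1 of the 2 probes of HOXC4 and of HOXB6 separated the arrays with a named medium from the numbered arrays. HOXC4 (probe ILMN_1719975) was detected on all 4 named-medium arrays, at 5.71, 5.98, 6.21 and 6.81, and on none of the 4 numbered arrays, at 4.65, 4.63, 4.53 and 4.73. HOXB6 (probe ILMN_1768101), a trunk gene active in blood progenitors, was detected at 5.89, 5.82, 6.14 and 6.19 on the named-medium arrays and not at 4.73, 4.98, 4.65 and 4.63 on the numbered ones. The mean differences were 1.54 for HOXC4 and 1.26 for HOXB6, and these were 2 of 36 HOX probes (5.56%) apart in this way, where 1.35% of all probes were. The other HOXC4 probe (ILMN_1757184) differed by -0.04 and the other HOXB6 probe (ILMN_1667831) by 0.36, each with overlapping values. Both called differences fell under 2-fold with a larger background offset, to 0.867 for HOXC4 and 0.695 for HOXB6. The background SD given above differs between the same arrays, and its part in these differences was not tested. The labels do not say whether the numbered cells had androgen. On the control arrays KLK3, an androgen-induced gene, had 7.42 and 7.90 numbered, 7.71 with R1881 and 5.52 hormone-deprived. TMPRSS2, also androgen-induced, had 10.82 and 11.64 numbered, 11.31 with R1881 and 8.86 hormone-deprived.

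**Figure D4:**
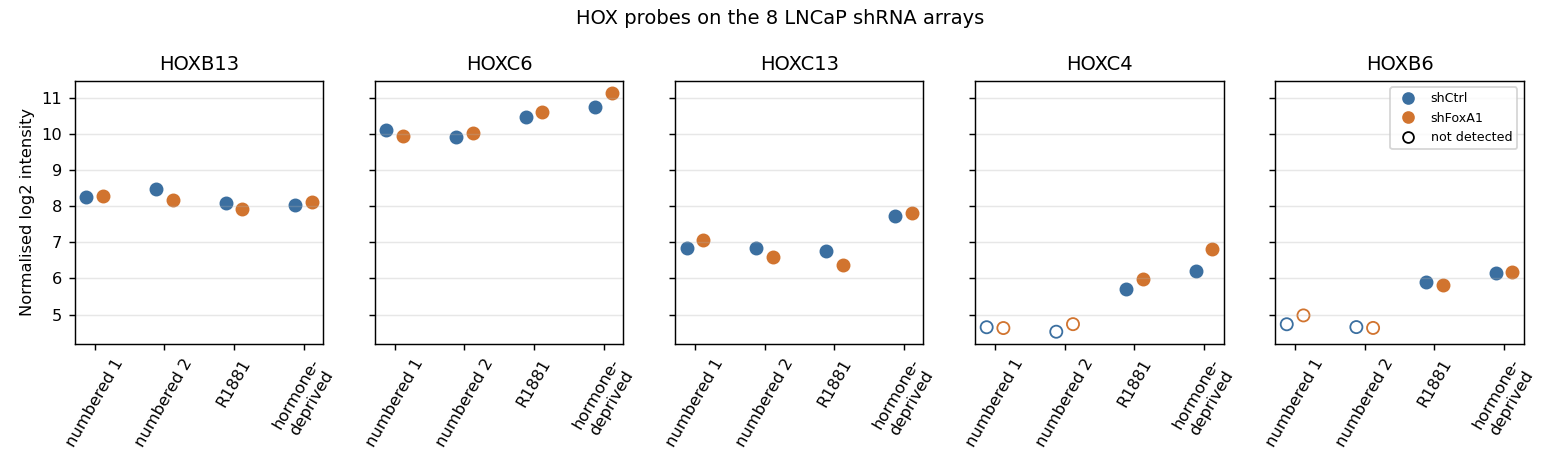
Normalised log2 intensity of HOXB13, HOXC6 (ILMN_1794492), HOXC13, HOXC4 (ILMN_1719975) and HOXB6 (ILMN_1768101) on the 8 LNCaP shRNA arrays, in pairs by title; blue is control, orange FoxA1 shRNA, and open circles were not detected. HOXC13 is raised on both hormone-deprived arrays, and HOXC4 and HOXB6 are detected on the 4 named-medium arrays only.

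In the single pairs of the siRNA, 22RV1 and PC-3M arrays, a HOX probe was called when the arrays differed at least 2-fold and it was detected on the brighter array. There are no replicates and no test. The siRNA pair gave 0 calls among 16 HOX probes, where 2.57% of all probes were at least 2-fold apart, and the PC-3M pair 0 among 12, where 2.00% were. The 22RV1 pair gave 1 call among 24, HOXB8, where 2.54% of all probes were apart and 1.17% were lower. HOXB8 had 6.93 in control and 5.87 in FoxA1 shRNA cells, a difference of -1.06. It fell short of 2-fold without background correction (-0.899), with a larger offset (-0.755) and in the authors' processed values (-0.944).

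In the 22RV1 pair, 19 of the 24 HOX probes detected on at least 1 array were lower with FoxA1 shRNA, where 52.7% of all such probes were, and the median was -0.18 for HOX and -0.03 for all. Without background correction 19 of 24 were lower again (median -0.146 for HOX, -0.0212 for all). The authors' processed values also gave 19 of 24 (median -0.161 for HOX, -0.0234 for all). The part of the scaling was not tested. With median scaling the median of all probes in the pair was -0.334 and that of the HOX probes -0.335, with 21 of 24 HOX probes and 80.8% of all probes lower. HOXB5 (9.75 to 9.51), HOXB7 (7.76 to 7.48), HOXC4 (7.45 to 7.14), HOXC8 (7.13 to 6.76) and HOXC9 (6.97 to 6.64) were all among the lower probes. HOXB13 went from 9.06 to 9.70 and HOXC13 from 6.88 to 7.37.

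In the siRNA pair, HOXB5 had 5.39 in control and 4.67 with FoxA1 siRNA (-0.72). HOXB13 had 9.49 and 9.51, HOXC6 (ILMN_1794492) 10.84 and 10.72, and HOXC13 7.30 and 7.44. HOXB5 had the largest difference among the 16 HOX probes of this pair. In PC-3M, HOXC6 had 6.21 in control and 6.90 on the array labelled FoxA1 (0.69), and HOXA2 (ILMN_2107068) 5.06 and 5.77 (0.71). The other HOXA2 probe (ILMN_1799836), also detected on both arrays, had 5.31 and 5.39 (0.08). HOXB13 had 7.49 and 7.59 and HOXC13 5.33 and 5.50. HOXD3, which in endothelial cells promotes an invasive state, had 5.33 and 4.88 (-0.45), the second value below detection. In the 4 LNCaP shRNA pairs, 6, 8, 11 and 12 HOX probes were detected on the brighter array (numbered 1, numbered 2, R1881, hormone-deprived). Of these 37 values 0 were at least 2-fold apart, where 5.53% of all such values were.

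**Figure D5:**
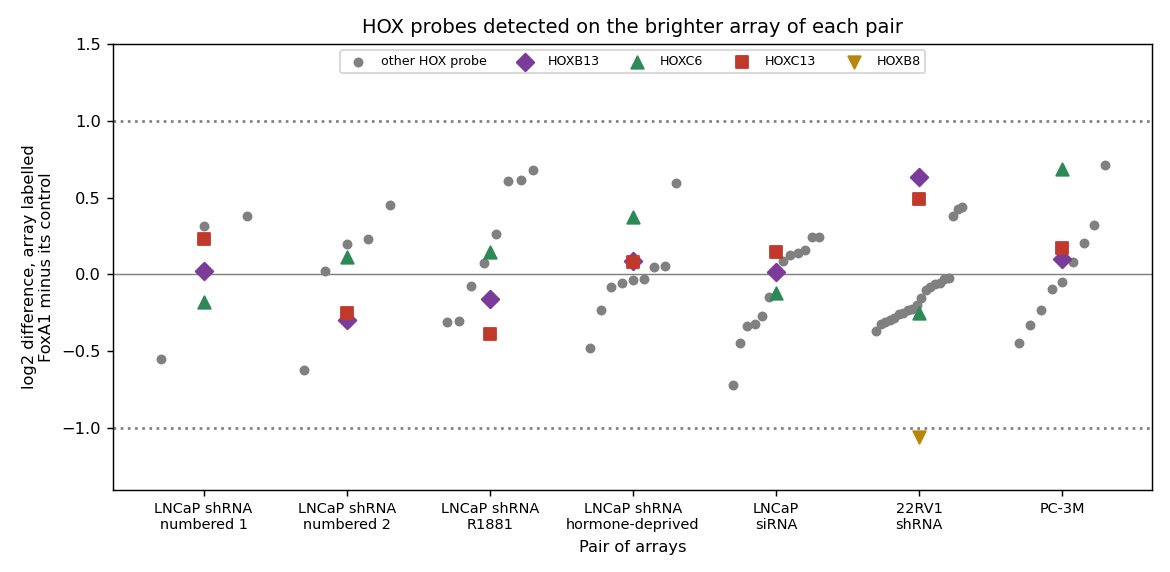
Log2 difference, array labelled FoxA1 minus its control, of every HOX probe detected on the brighter array of each of the 7 pairs (horizontal axis); HOXB13, HOXC6 (ILMN_1794492), HOXC13 and HOXB8 have their own symbols, other HOX probes are grey and spread sideways for clarity, and dotted lines mark 2-fold. HOXB8 in 22RV1, at -1.06, is the point beyond a dotted line.

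The genes that act with HOX proteins or on HOX clusters were counted in the same LNCaP limma fit, where 6.17% of all probes passed. Of the HOX cofactors, 6 genes were tested and PKNOX1 alone rose, by 0.67 (SE 0.16, limma adjusted p = 0.0463), while MEIS1 differed by -0.29 (limma adjusted p = 0.328) and PBX3 by 0.01 (limma adjusted p = 0.982). Of 14 tested Polycomb genes, EZH2, the catalytic subunit of the complex that methylates histone H3 at silent HOX clusters, fell with all 3 probes. The EZH2 differences were -0.81, -0.82 and -1.15 (limma adjusted p = 0.0339, 0.0376 and 0.0319). Of 10 tested trithorax and MLL genes, KMT2B, an H3K4 methyltransferase, rose by 0.75 (SE 0.17, limma adjusted p = 0.0389). Of 7 tested non-coding and neighbouring genes, SKAP2, which lies beside the HOXA cluster, rose with both probes, by 0.81 and 0.83 (limma adjusted p = 0.0177 and 0.0266). Of 2 tested CDX and retinoid genes, 0 passed. The medians were 0.01 for the cofactors, -0.12 for Polycomb, -0.11 for trithorax, -0.06 for the neighbours and -0.13 for the CDX and retinoid genes.

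These single calls depend on the settings. PKNOX1 passed in 7 of 21 alternative settings and KMT2B in 8 of 20. EZH2 passed in 11 of 21, 10 of 20 and 11 of 19 with its 3 probes, and SKAP2 in 14 of 21 and 8 of 20 with its 2. In the unreplicated pairs, EZH2 differed by -1.05, -0.42 and -0.83 with FoxA1 siRNA in LNCaP, by -0.60, -0.29 and -0.61 in 22RV1 and by -0.13, 0.02 and 0.02 in PC-3M. SKAP2 differed by 0.61 and 0.47 with the siRNA, by -0.55 and -0.63 in 22RV1 and by 0.13 and 0.29 in PC-3M. KMT2B differed by -0.05, 0.81 and 0.05 in the same order of pairs. PKNOX1, with the probe that passed, differed by 0.32, 0.02 and 0.49.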

How the data were processed

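The authors deposited probe intensity tables that were not normalised, with a detection p-value column, made with GenomeStudio per the submitters' processing notes; version not given in the sources used here. In the siRNA and 22RV1 table the deposited detection column held whole numbers above 1 and was not used. The series matrix of the authors' processed intensity values served as an alternative; its values were linear and, from their shared sorted values, quantile-normalised within each of the 3 sets of arrays.

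Each table was background-corrected with a normal-exponential model (offset 16), quantile-normalised and taken to log2 in R 4.3.3 with limma 3.58.1. The LNCaP shRNA fit had knockdown and medium as terms (residual degrees of freedom 4, prior 5.1), a two-sided moderated test and Benjamini-Hochberg adjustment over 22177 probes. A bound ("at least N-fold") sets the bright mean against the lowest detected signal of the dim arrays or the dim probe's own, whichever was higher. The number of arrays limits the precision. All HOX genes are accounted for; values by array are given for HOX probes past a test or fold threshold, for HOXB13 and for the most intense HOX probe of each table, and up to 4 related genes past the test were named per list. HOXC13, HOXC4 and HOXB6 by medium, HOXD13, HOXB1 and others described by line or pair were chosen after their values were seen. The members and lists were chosen with earlier results of these data known. Alternatives covered normalisation, background, filter, medium term, pairing, source of values and leaving out arrays. Same-numbered arrays deviated with a correlation of -0.127. Sequences came from RefSeq (Python 3.11.15).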

Additional observations from a re-analysis of the deposited data

How the results depend on the processing

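The count of HOX probes called in the LNCaP shRNA fit was 0 in every alternative run, and 0 each time an array was left out (range 0 to 0), with 0 to 3 HOX probes at an unadjusted p of 0.05 in limma, while calls among all probes ranged from 53 without the medium term and 126 without a filter to 2302 with median scaling. Main and alternative counts over all probes were 1368 and, with 1 array left out, 78 (without FoxA1 shRNA R1881) to 1310, and 84 without both R1881 arrays. An array left alone in its medium is fitted by its own medium term and adds nothing to the knockdown difference. Leaving out 1 array of a named medium therefore nearly repeats leaving out both. With the pairs as a replicate block, 0 HOX probes and 851 of all probes passed, and with the numbers crossed, 0 and 1706; the numbers do not mark a known shared culture. Median scaling moved the median of all probes to -0.124 and left 397 of its 2302 calls higher, where 722 of 1368 were. The sign of small differences turned in these cases, each with no call before or after, the range with 1 array left out in brackets: HOXA2 to -0.00952 without control replicate 1 (-0.00952 to 0.103); HOXB6 (ILMN_1768101) to -0.0387 with cyclic loess, -0.114 with median scaling and -0.0336 without FoxA1 shRNA replicate 1 (-0.0336 to 0.104); HOXC6 to -0.126 with median scaling (ILMN_1794492, about the shift of all probes) and 0.0166 without FoxA1 shRNA replicate 1 (ILMN_1740104, -0.127 to 0.0166); HOXC13 to 0.00261 without FoxA1 shRNA replicate 2, 0.0209 and 0.0205 without the control or FoxA1 shRNA R1881 array, and 0.0209 without both (-0.192 to 0.0209). The count of HOX probes at least 2-fold apart in the 22RV1 pair fell from 1 to 0 without background correction, to 0 with an offset of 50 and to 0 in the authors' processed values. HOX genes detected in PC-3M fell from 8 to 3 at p below 0.01, and in LNCaP shRNA arrays rose from 3 to 12 when 1 array sufficed. The HOX count higher in 22RV1 than in LNCaP was 8 with median scaling and 6 without background correction or in the authors' processed values. FOXA1 missed the threshold in 5 of 21 alternatives, with adjusted p up to 0.0669. The cause of these changes was not tested.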

Other observations

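Among the non-coding genes of the HOX clusters, chosen here after their values were seen, HOXA11-AS, an antisense RNA of the HOXA cluster, had log2 values of 6.34 (control) and 7.86 (FoxA1 shRNA) on the hormone-deprived LNCaP arrays, and 4.63 to 5.26 on the other 6 LNCaP shRNA arrays. Its knockdown difference over the 8 arrays was 0.48 (SE 0.24, limma adjusted p = 0.278). It was detected on 4 of the 8 LNCaP shRNA arrays, on all 4 siRNA and 22RV1 arrays, at 4.77, 5.38, 4.59 and 4.85 (LNCaP control and FoxA1 siRNA, 22RV1 control and FoxA1 shRNA), and on both PC-3M arrays, at 7.42 and 7.43. HOTAIR, a HOXC antisense RNA, was detected with 1 of its 2 probes on both 22RV1 arrays, at 4.88 and 4.67, and on no LNCaP or PC-3M array. MEIS2, a HOX cofactor, was detected with 1 of its 4 probes on both PC-3M arrays, at 6.36 and 6.35, and on none of the other 12 arrays. Array probes do not settle the strand of overlapping antisense RNAs unless designed to, and no probe sequence was used here.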
